A study of Mus musculus with 12 samples.

Results

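The Bcl2 family decides whether a cell keeps its mitochondria intact or undergoes apoptosis. Gene-level RNA-seq counts of 9 members of this family were examined in immortalized mouse embryonic palatal mesenchyme (iMEPM) cells, namely the BH3-only genes *Bmf*, *Bcl2l11* (Bim), *Bad*, *Bid*, and *Pmaip1* (Noxa), the pro-survival genes *Bcl2*, *Bcl2l1* (Bcl-xL), and *Mcl1*, and the effector gene *Bak1*. The 9 genes were taken by symbol from a table of 51490 genes, and all 9 were among the 15037 genes that passed a filter for low counts. The set was chosen by the change of *Bmf*, which was lower upon ligand stimulation of scramble cells in these same libraries, so that comparison is a description for every member and was not tested here. For the same reason, *Bmf* was tested only between the shSrsf3 samples with and without ligand, which share no library with that comparison. The spread used in that test was estimated over all 12 samples, the scramble libraries included.

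The iMEPM cells derive from a male Cdkn2a-/- embryo. They carried a lentiviral scramble shRNA (scramble) or an shRNA against the 3' UTR of *Srsf3* (shSrsf3), which encodes a serine/arginine-rich splicing factor, and were sorted for the green fluorescent protein of the vector. Each shRNA is represented by 1 stable line, so that a difference between scramble and shSrsf3 samples is a difference between these lines. Serum-starved cells were left unstimulated (-PDGF-AA) or received 10 ng/mL PDGF-AA, the ligand of the receptor PDGFRα, for 1 hr (+PDGF-AA), giving 4 groups of 3 biological replicates and 12 samples.

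BH3-only proteins are sensors of stress and of lost growth factor or matrix signals. They bind a groove on the pro-survival proteins through a short helix, the BH3 domain, and thereby free the effectors Bak and Bax to open the outer mitochondrial membrane. Many are held in check after translation. Bmf and Bim can be tethered to the cytoskeleton through dynein light chains, Bad is kept in the cytosol by 14-3-3 proteins once it is phosphorylated, for example by Akt, and Bid is activated by cleavage by caspase 8. FoxO transcription factors, which Akt keeps out of the nucleus, are known to activate *Bcl2l11* among other genes.

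The coding sequence of the BH3 helix is what these genes have in common, and 30 coding bases around it are shown for the 8 members whose sequence is given here, read 5' to 3' from the GRCm39 genome within the canonical transcript of each gene. The capitals mark the codon of the first conserved leucine and, 4 residues later, the codon of a small residue (glycine, serine, or alanine) followed by that of an aspartate.
Bmf: agaaagCTTcagtgtattGCAGACcagttc
Bcl2l11: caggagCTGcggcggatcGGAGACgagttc
Bad: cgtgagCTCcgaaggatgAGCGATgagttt
Bid: agacatCTCgcccaaataGGCGATgagatg
Bcl2: ctgaccCTCcgccgggctGGGGATgacttc
Bcl2l1: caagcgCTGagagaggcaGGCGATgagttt
Mcl1: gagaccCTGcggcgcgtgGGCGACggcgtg
Bak1: cggcagCTTgctctcatcGGAGATgatatt
Each of the 8 coding sequences held the pattern of these 3 codons once in frame. It is a loose pattern, which 34.1% of 21593 canonical coding transcripts contained at least once. Of the 30 bases, 19 were the same in *Bcl2l11* as in *Bmf*, against 14 or 15 in *Bad*, *Bid*, and *Bak1* and 11 to 13 in *Bcl2*, *Bcl2l1*, and *Mcl1*. The stretches lie in single coding exons, at chr2:118375584-118375613 on the minus strand in exon 4 of *Bmf*, at chr2:127989064-127989093 on the plus strand in exon 3 of *Bcl2l11*, and at chr19:6928154-6928183 on the plus strand in exon 2 of *Bad*. That of *Bid* lies at chr6:120874253-120874282 on the minus strand in exon 4. Among the pro-survival genes, the stretch lies at chr1:106640308-106640337 on the minus strand in exon 1 of *Bcl2*, at chr2:152671620-152671649 on the minus strand in exon 2 of *Bcl2l1*, and at chr3:95566741-95566770 on the plus strand in exon 1 of *Mcl1*. For *Bak1*, it lies at chr17:27241508-27241537 on the minus strand in exon 4. The counts are sums over whole genes and do not measure these exons by themselves.

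Total counts per library ranged from 30958966 to 76123359 and the 3 shSrsf3 +PDGF-AA libraries had the lowest range of the 4 groups (30958966 to 37334733). *Srsf3* had 199 to 231 CPM (counts per 1000000 counts, scaled with the normalization factors) in scramble and 161 to 170 CPM in shSrsf3 libraries, without overlap. *Cdkn2a* had 2.99 to 3.59 CPM (96 to 231 counts) in the 12 libraries although the line derives from a Cdkn2a-/- embryo. Gene-level counts do not show which exons these reads came from. Of 8 markers of palatal mesenchyme, all passed the filter with a summed level of 22300 to 23800 CPM. This sum was mostly *Col1a1* (16200 to 18400 CPM) and *Vim* (4220 to 5220 CPM), and *Osr2* (2.30 to 5.91 CPM) and *Msx1* (0.547 to 1.81 CPM) were low. The summed markers of other cell types were 0.591 to 1.09 CPM in shSrsf3 and 2.18 to 3.33 CPM in scramble libraries for epithelium (6 genes), 19.1 to 22.6 and 30.5 to 34.6 CPM for endothelium (4 genes, mostly *Tek*), and 20.0 to 24.7 and 28.2 to 31.5 CPM for neural crest, glia, and neurons (4 genes, of which *Sox10* and *Elavl4* had no count), so that these sums were lower in every shSrsf3 library. Blood cell markers (4 genes, *Adgre1* at 0) summed to 0.418 to 0.940 CPM and skeletal muscle markers (4 genes, *Myod1* at 0) to 0.104 to 0.579 CPM, with overlap between the lines. The part of these levels in the differences between the lines was not tested. Per the study's methods, 3 libraries had the lowest mapping rates, namely unstimulated scramble replicates 1 and 2 and stimulated scramble replicate 2. For 27.3% of the tested genes, these did not overlap with the other 3 scramble libraries. Values that rest on them are given below with and without them.

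Per kb of the canonical transcript, *Mcl1*, a short-lived pro-survival protein, had the highest level of the 9 genes and *Bmf* the lowest. *Mcl1* had a mean of 52.7 CPM per kb over the 12 samples (range 46.0 to 58.5). It was followed by *Bak1*, which forms the pore together with its relative Bax, at 36.5 CPM per kb (31.1 to 40.7). Neither range overlapped with the other or with those of the remaining genes. *Bad* (16.6 to 20.7 CPM per kb), *Pmaip1* (15 to 19.2), and *Bcl2l1* (13.8 to 16.7) followed with overlapping ranges, so that their order is within the spread between samples. *Bid* had 10.3 to 11.97 CPM per kb, *Bcl2* 2.79 to 3.65, *Bcl2l11* 1.51 to 2.45, and *Bmf* 0.221 to 0.802, in 4 steps without overlap. Within the summed level per kb of the 5 BH3-only genes, *Bmf* therefore made up 0.445% to 1.68% and *Bcl2l11* 3.16% to 5.14% in each library. This sum leaves out *Bbc3* (Puma), a further BH3-only gene with 9.23 to 13.7 CPM before scaling to length. Within the 3 pro-survival genes of the 9, *Mcl1* made up 71.0% to 77.4%. These levels use 1 transcript length per gene, since the deposited counts do not show which isoforms were present.

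**Figure D1:**
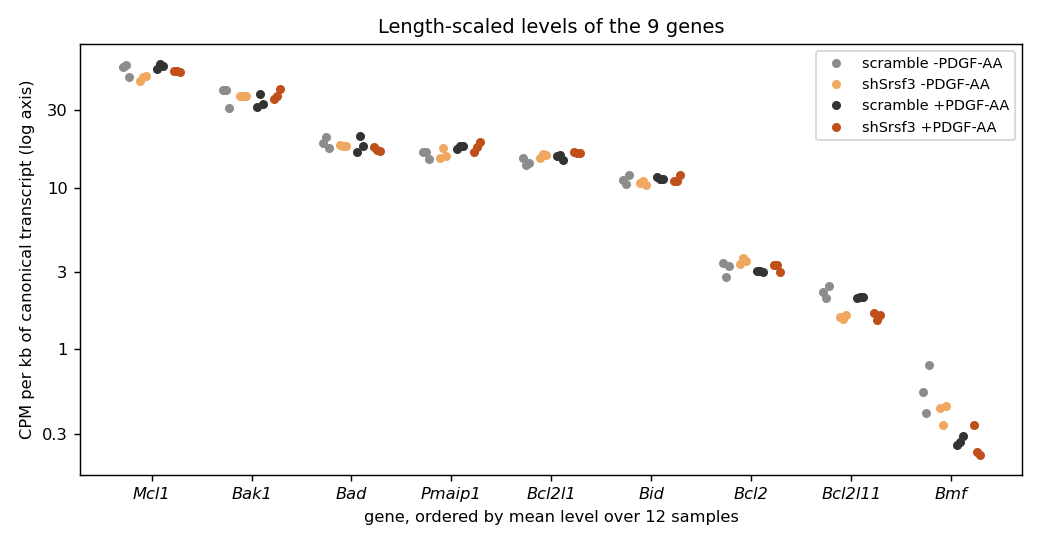
Level of each gene in each of the 12 samples, as CPM per kb of the canonical transcript on a log axis, with genes ordered by their mean and colors for the 4 groups. Mcl1 (46.0 to 58.5) and Bak1 (31.1 to 40.7) stand above the rest, and Bmf (0.221 to 0.802) lies below all other members.

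*Bmf* was the only member with a change of at least 2-fold in any comparison, and its stimulated samples lay below the unstimulated ones in both lines. In scramble -PDGF-AA replicates 1, 2, and 3 it had 2.55, 1.89, and 3.73 CPM, from 98, 82, and 225 counts. In scramble +PDGF-AA replicates it had 1.20, 1.24, and 1.34 CPM, from 72, 70, and 87 counts. Every stimulated scramble sample was below every unstimulated one, and the unstimulated samples were more spread out (2.72 ± 0.934 CPM) than the stimulated ones (1.26 ± 0.0764 CPM, SD, n = 3 each). Replicate 3 of the unstimulated scramble cells was the highest of all 12 samples, and its 95% counting interval of 3.26 to 4.25 CPM (exact Poisson) lay above those of all other samples. The log2 fold change was -1.12 (SE 0.231, 95% interval -1.62 to -0.62), so that the level fell by 54% with ligand. The interval does not allow for the choice of *Bmf* by these libraries and is not a test. The log2 fold change was -0.80, short of 2-fold, without unstimulated scramble replicate 3. It was -1.55 without the 3 libraries of lowest mapping rate, which leaves that replicate as the only unstimulated scramble library. In bulk RNA, fewer cells that express a gene and less RNA per cell cannot be told apart.

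In shSrsf3 cells, *Bmf* had 2.02, 1.59, and 2.07 CPM without ligand, from 156, 105, and 77 counts. With ligand it had 1.58, 1.08, and 1.03 CPM, from 59, 35, and 32 counts, the lowest counts of any member. The highest stimulated and the lowest unstimulated samples, at 1.58 and 1.59 CPM, lay next to each other without overlap. The group levels were 1.89 ± 0.260 CPM without and 1.23 ± 0.301 CPM with ligand (SD, n = 3 each), a log2 fold change of -0.60 (SE 0.249, 95% interval -1.14 to -0.07). This did not pass the adjustment over all genes in edgeR's quasi-likelihood test (adjusted p = 0.451), with a range of 0.135 to 0.818 over the alternative settings. The exact permutation test gave p = 0.1 (two-sided), the smallest that 3 samples against 3 allow. In the shSrsf3 line without ligand, *Bmf* differed from scramble cells by -0.54 on the log2 scale (95% interval -1.03 to -0.06), with overlapping samples, and with ligand by -0.02 (-0.58 to 0.53). The first value was -0.22 without unstimulated scramble replicate 3 and -0.99 without the 3 libraries of lowest mapping rate. The difference between the ligand effects of the lines was 0.52 (95% interval -0.22 to 1.25). These 3 comparisons share the scramble libraries that chose *Bmf* and were not tested. Their intervals do not allow for that choice.

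**Figure D2:**
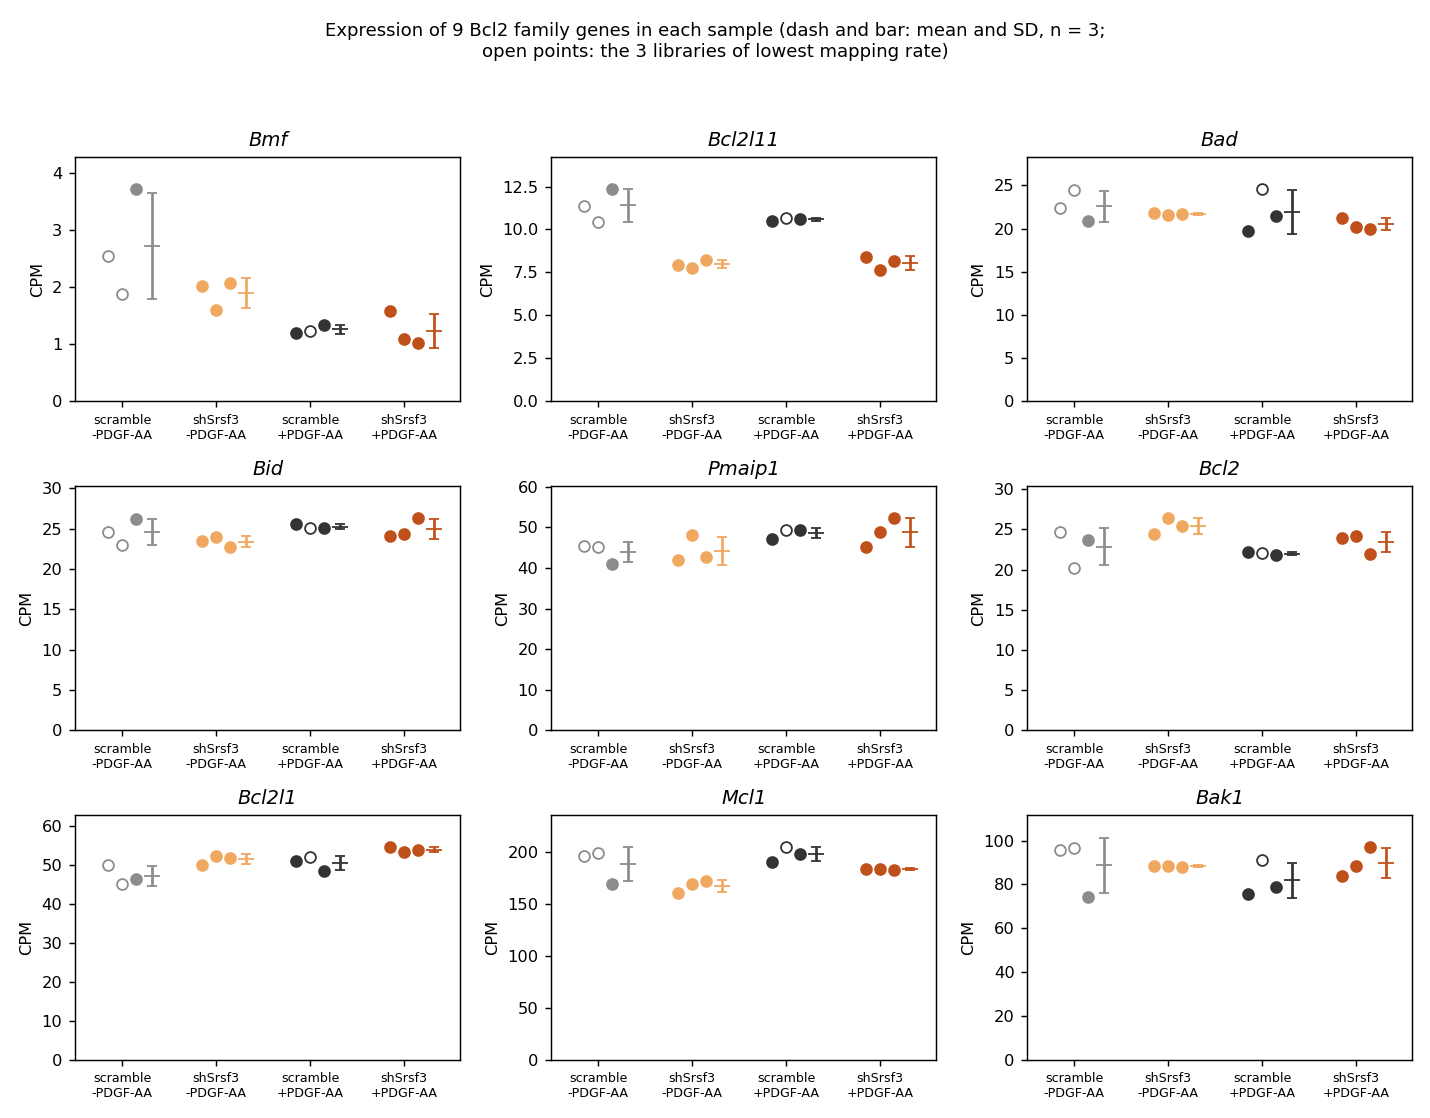
CPM of the 9 genes in each sample from 0, with 1 point per replicate, the mean and SD (n = 3) beside each group, and open points for the 3 libraries of lowest mapping rate. Bmf is lower in +PDGF-AA samples of both lines, Bcl2l11 is lower in the 6 shSrsf3 samples, and the open points of Bak1 (91.0 to 96.5 CPM) lie above the other scramble samples (74.1 to 78.9 CPM).

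In the model of all samples, the other 8 members changed by at most 0.15 on the log2 scale upon stimulation of scramble cells. Over all genes, 4.04% were called in this comparison, 0.2% at 2-fold, and samples did not overlap for 18.8%, from which nothing is read for the members. The member next to it in size was *Pmaip1*, a BH3-only protein that binds Mcl1, with 45.4, 45.3, and 41.0 CPM without and 47.1, 49.4, and 49.3 CPM with ligand. It was higher in every stimulated sample, with a log2 fold change of 0.15 (95% interval 0.01 to 0.29). *Bcl2l11* changed by -0.11 (-0.25 to 0.03), *Bad* by -0.04 (-0.20 to 0.12), and *Bid* by 0.03 (-0.07 to 0.14). Of the pro-survival genes, *Bcl2l1* changed by 0.10 (0.00 to 0.19), *Mcl1* by 0.07 (-0.04 to 0.19), and *Bcl2* by -0.06 (-0.19 to 0.08). *Bak1* changed by -0.12 (-0.32 to 0.08) and had 95.6, 96.5, and 74.1 CPM without and 75.6, 91.0, and 78.9 CPM with ligand. Its 3 highest values belonged to the 3 libraries of lowest mapping rate, and without them its change was 0.06. Without these libraries *Pmaip1* changed by 0.23, *Bcl2l11* by -0.23, *Mcl1* by 0.20, and *Bid* by -0.05.

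In shSrsf3 cells, no member of the 9 was called upon stimulation, by edgeR's quasi-likelihood test or by DESeq2, where edgeR called 0.565% of all genes, and 0.0399% at 2-fold. At an unadjusted p under 0.05 there were 3, by either tool, against 9.44% of all genes by edgeR. In edgeR these were *Bmf*, *Pmaip1* with 0.14 (95% interval 0.00 to 0.28), and *Mcl1* with 0.13 (0.02 to 0.25). Samples with and without ligand did not overlap for 6 of the 9 genes, against 18% of all genes. The samples of *Bmf*, *Bad*, and *Bcl2* lay lower with ligand (9.42% of all genes) and those of *Bid*, *Bcl2l1*, and *Mcl1* higher (8.59% of all genes). Apart from *Bmf*, these shifts were small, from -0.12 (*Bcl2*, 95% interval -0.26 to 0.02) to 0.13 (*Mcl1*). *Bcl2l11* changed by 0.02 (-0.13 to 0.17) and *Bak1* by 0.02 (-0.18 to 0.22), with overlapping samples. The median log2 fold change of the 9 genes was 0.02, against -0.00436 for all genes. No member other than *Bmf* had an interval that reached 2-fold in either line.

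*Bcl2l11*, whose product Bim binds all pro-survival members, was lower in shSrsf3 than in scramble cells at both states of stimulation. Without ligand, the scramble samples had 11.4, 10.5, and 12.4 CPM and the shSrsf3 samples 7.95, 7.74, and 8.21 CPM. With ligand, these were 10.5, 10.7, and 10.6 CPM in scramble and 8.42, 7.62, and 8.18 CPM in shSrsf3 cells. All 6 shSrsf3 samples were below all 6 scramble samples. The group levels went from 11.4 ± 0.962 to 7.97 ± 0.236 CPM without ligand (log2 fold change -0.52, SE 0.0668, adjusted p = 2.84e-05 from edgeR's test) and from 10.6 ± 0.0866 to 8.07 ± 0.409 CPM with ligand (-0.39, SE 0.0691, adjusted p = 0.000478 from edgeR's test; SD, n = 3 each). The level thus fell by 30.4% without ligand, and it fell by 23.7% with ligand, under the 2-fold minimum of the study. Over the alternative settings the adjusted p ranged from 5.01e-09 to 0.000845 without and from 3.03e-05 to 0.00348 with ligand.

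The pro-survival genes differed less between the lines. Without ligand, *Bcl2l1*, which keeps Bak and Bax inactive, had 50.0, 45.2, and 46.4 CPM in the scramble line and 50.0, 52.4, and 51.9 CPM in the shSrsf3 line. The shSrsf3 samples were higher, by a margin of 49.984 against 50.021 CPM, with a log2 fold change of 0.12 (SE 0.0441, adjusted p = 0.0335 from edgeR's test). With ligand, the scramble samples had 48.5 to 52.0 CPM and the shSrsf3 samples 53.3 to 54.6 CPM, again without overlap (0.09, SE 0.0443, adjusted p = 0.108 from edgeR's test). That difference was called with library size alone (adjusted p = 0.0474) and without the 3 libraries of lowest mapping rate (adjusted p = 0.044). The call without ligand was lost without scramble replicate 2 or shSrsf3 replicates 2 or 3 (adjusted p = 0.127, 0.109, and 0.0769), and in the model without a low-count filter or of the compared groups alone (0.0882 and 0.0626).

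Without ligand, *Mcl1* had 196, 199, and 169 CPM in the scramble line and 160, 169, and 172 CPM in the shSrsf3 line, with overlap. Its log2 fold change of -0.17 (SE 0.0544) was called (adjusted p = 0.0214 from edgeR's test). Both higher scramble values came from libraries of lowest mapping rate, and without the 3 such libraries the difference was -0.02 (adjusted p = 0.75). With a model term for these libraries it was -0.07 (adjusted p = 0.239). The call was also lost without unstimulated scramble replicate 1 or 2 or shSrsf3 replicate 1 (adjusted p = 0.0815, 0.0979, and 0.0927) and in the model of the compared groups alone (0.0579). With ligand, *Mcl1* had 190, 204, and 198 CPM in the scramble line and 183, 184, and 182 CPM in the shSrsf3 line, without overlap, and the difference of -0.11 was not called (95% interval -0.23 to 0.01, adjusted p = 0.131 from edgeR's test). It was called without unstimulated scramble replicate 3 (adjusted p = 0.0257) and in the model of the compared groups alone (0.0431). *Bcl2*, the founding pro-survival gene, had 22.8 ± 2.34 CPM in the scramble and 25.4 ± 0.994 CPM in the shSrsf3 line without ligand (SD, n = 3 each). It differed by 0.15 (95% interval 0.02 to 0.29, adjusted p = 0.0624; 0.0253 and 0.0379 without scramble replicates 1 and 3, 0.0421 with library size alone, and 0.044 without a low-count filter) and with ligand by 0.09 (-0.05 to 0.23, adjusted p = 0.294). The sum per kb of *Bcl2*, *Bcl2l1*, and *Mcl1* leaves out *Bcl2l2*, a further pro-survival gene. Of this sum, *Mcl1* accounted for 75.3% ± 1.99 in the scramble and 71.3% ± 0.415 in the shSrsf3 line without ligand. With ligand, it accounted for 75.3% ± 0.780 and 72.7% ± 0.224 (SD, n = 3 each).

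The effector *Bak1* and the BH3-only genes *Bad*, *Bid*, and *Pmaip1* were not called between the lines in the model of all samples. *Bak1* had 88.6, 88.5, and 88.1 CPM in shSrsf3 samples without ligand, between its scramble values of 96.5 and 74.1 CPM, a difference of -0.0039 on the log2 scale (95% interval -0.20 to 0.20). Without the 3 libraries of lowest mapping rate, it was higher in shSrsf3 samples by 0.25 without and 0.21 with ligand (adjusted p = 0.0104 and 0.0057 from edgeR's test). With a model term for these libraries the values were 0.21 and 0.24 (adjusted p = 0.00971 and 0.00132). With all samples, the difference with ligand was 0.13 (-0.07 to 0.33, adjusted p = 0.283). *Bad* differed by -0.06 (-0.22 to 0.10) without and -0.10 (-0.26 to 0.07) with ligand, and it too was highest in the libraries of lowest mapping rate (22.4 to 24.6 CPM, against 19.7 to 21.5 CPM in the other scramble libraries). *Bid* differed by -0.07 (-0.18 to 0.03) and -0.02 (-0.13 to 0.09), and *Pmaip1* by 0.01 (-0.13 to 0.15) and 0.00 (-0.14 to 0.14). *Bid* was called, at -0.17 (adjusted p = 0.0431), only without the 3 libraries of lowest mapping rate among the settings tried.

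Counted without *Bmf*, 3 of 8 members were thus called between the lines without ligand, 1 higher and 2 lower, where 45.9% of all genes were called, 22.2% higher and 23.7% lower. With ligand 1 of 8 was called, where 41% of all genes were. At an unadjusted p under 0.05 there were 4 and 1, against 52.8% and 48.6% of all genes. None reached 2-fold in either, where 5.75% and 5.42% of all genes were called at 2-fold. Samples of the lines did not overlap for 2 and 3 of the 8 genes, against 53.3% and 52.6% of all genes. The median log2 fold changes were -0.03 and -0.01 (-0.0308 and -0.00737), against -0.02 and -0.01 for all genes. *Bcl2l11* was the member called between the lines in every setting tried that used the adjusted p alone.

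**Figure D3:**
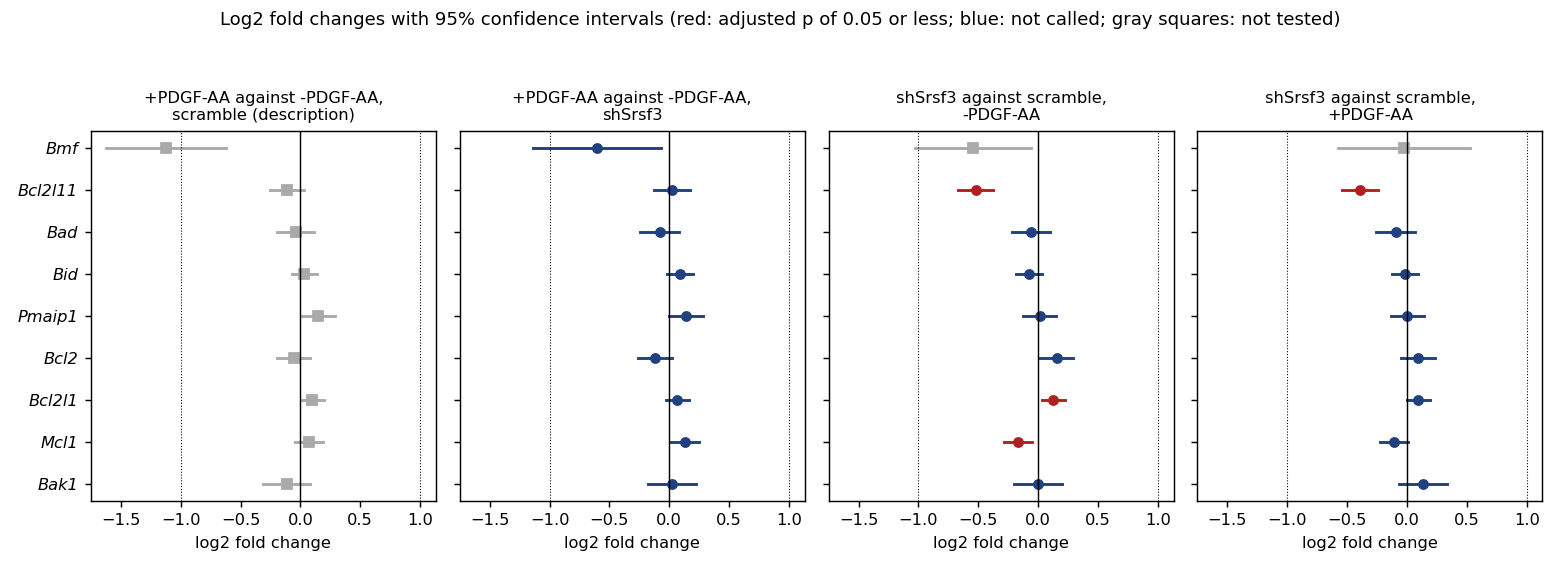
Log2 fold change (x axis) of each gene with its 95% confidence interval in 4 comparisons, with dotted lines at 2-fold, red for an adjusted p of 0.05 or less, blue for genes not called, and gray squares where the choice of the genes allows no test. Bmf has the widest intervals and is centered at -1.12 and -0.60 upon stimulation, and Bcl2l11 at -0.52 and -0.39 is the gene called in both comparisons of the lines.

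By the interaction term of edgeR's model, a difference between the lines in the effect of the ligand was called for 0 of the 8 members other than *Bmf*, and 0 of 8 had an unadjusted p under 0.05, against 0.0133% and 5.54% of all genes. With so few genes called, this does not show that the effects were alike. DESeq2 also gave 0 and 0. The differences ranged from -0.06 (*Bcl2*, 95% interval -0.26 to 0.13) to 0.14 (*Bak1*, -0.15 to 0.42), and that of *Bcl2l11* was 0.13 (-0.08 to 0.34).

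Of 16 further genes of the family, 9 passed the filter. Without ligand, 3 were higher and 3 lower in shSrsf3 than in scramble cells (22.2% and 23.7% of all genes), and with ligand 2 and 2 (20.3% and 20.7%). *Bnip3*, a BH3-like protein of the mitochondrial membrane that takes part in mitophagy, had the largest change among those called, from 15.2 ± 1.18 CPM in the scramble to 4.70 ± 0.765 CPM in the shSrsf3 line without ligand (log2 fold change -1.67, SE 0.1, adjusted p = 2.23e-08) and 14.1 ± 0.857 and 5.02 ± 0.394 CPM with ligand (-1.49, SE 0.106, adjusted p = 1.11e-07 from edgeR's test; SD, n = 3 each). It was the only called gene of this list past 2-fold. Its relative *Bnip3l* was lower (-0.42 and -0.34). *Bok*, a Bak-like effector, was higher by 0.79 and 0.54, with 19.5 to 21.5 CPM in the 6 scramble and 28.5 to 35.87 CPM in the 6 shSrsf3 samples. *Bcl2l2*, a pro-survival gene, was higher by 0.28 and 0.19. *Bax*, named here after its values were seen because it is the partner of *Bak1*, was higher by 0.18 without ligand (adjusted p = 0.00983) and differed by 0.10 with ligand (adjusted p = 0.117). The call of *Bax* was lost without the 3 libraries of lowest mapping rate (0.10, adjusted p = 0.112), with a model term for them (0.10, adjusted p = 0.0957), and without unstimulated scramble replicate 1 (0.14, adjusted p = 0.0507). *Bbc3* (Puma), a BH3-only gene, was lower without ligand (-0.39, adjusted p = 0.000705) and differed by 0.02 with ligand (adjusted p = 0.831). None of the 9 was called upon stimulation in either line by edgeR's test or DESeq2. In scramble cells 2 and in shSrsf3 cells 3 had an unadjusted p under 0.05 by either tool. By edgeR, 9.44% of all genes had such a p in shSrsf3 cells. The share in scramble cells is not given here, so nothing is read from that count.

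Downstream of the mitochondria, 22 genes of the apoptosome, the caspases, and their inhibitors were tested. Between the lines 4 were higher and 8 lower without ligand (22.2% and 23.7% of all genes), and 2 and 8 with ligand (20.3% and 20.7%), with medians of -0.08 and -0.08 against -0.02 and -0.01 for all genes. The initiator caspase genes *Casp2* (-0.48 and -0.42) and *Casp9* (-0.44 and -0.42) and the executioner gene *Casp6* (-0.46 and -0.35) were lower in shSrsf3 cells, and *Birc5* (survivin), which also acts in cell division, was higher (0.47 and 0.52). Upon stimulation, *Casp2* was the 1 gene of this list called in scramble cells by edgeR (-0.30, adjusted p = 0.0329), where DESeq2 called 2. This call was lost without unstimulated scramble replicates 1 or 3 (adjusted p = 0.112 and 0.0569), stimulated scramble replicates 2 or 3 (0.0741 and 0.105), unstimulated shSrsf3 replicate 1 (0.0545), or stimulated shSrsf3 replicate 3 (0.0502). It was also lost in the model of the compared groups alone (0.127) and without the 3 libraries of lowest mapping rate (0.0866). None of the 22 was called in shSrsf3 cells by edgeR's test or DESeq2. At an unadjusted p under 0.05 there was 1 by either tool, against 9.44% of all genes by edgeR.

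Among 9 genes that anchor BH3-only proteins, the dynein light chain and 14-3-3 genes, 2 were higher and 4 lower in shSrsf3 cells without ligand (22.2% and 23.7% of all genes), and 1 and 2 with ligand (20.3% and 20.7%). *Ywhag* was higher (0.33 and 0.29) and *Ywhaq* (-0.20 and -0.26) and *Ywhaz* (-0.15 and -0.14) were lower at both states. Without ligand, *Ywhae* (-0.25) and *Ywhab* (-0.22) were lower, but without the 3 libraries of lowest mapping rate the values were -0.04 and -0.04 (adjusted p = 0.604 and 0.421). The call of *Ywhae* was also lost without unstimulated scramble replicate 1 or 2 (adjusted p = 0.052 and 0.0515), and that of *Ywhaz* with ligand without stimulated shSrsf3 replicate 1 (0.0538). Of 11 kinases and ubiquitin pathway genes that act on the stability or activity of the members, 5 were higher and 3 lower without ligand, and 4 and 2 with ligand, against the same shares of all genes. *Akt2* (0.41 and 0.37) and *Mapk3* (Erk1, 0.26 and 0.39) were higher in shSrsf3 cells. *Usp9x*, which removes ubiquitin from Mcl1, was lower (-0.19 and -0.25), as was *Fbxw7*, which adds it, without ligand (-0.35). None of these 20 genes was called upon stimulation in either line by edgeR's test, and DESeq2 called 1, of the second list, in scramble cells. At an unadjusted p under 0.05 there were 1 and 4 genes of the respective lists in scramble and 0 and 0 in shSrsf3 cells by either tool. By edgeR, 9.44% of all genes had such a p in shSrsf3 cells. The share in scramble cells is not given here, so nothing is read from the counts of 1 and 4.

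The FoxO genes and known FoxO targets, a list of 12, were lower with ligand and in shSrsf3 cells wherever they were called. In scramble cells 7 of 12 were lower upon stimulation and none higher, against 2.04% and 2% of all genes, and in shSrsf3 cells 3 and none, against 0.14% and 0.426%. The medians were -0.30 and -0.155, against -0.00958 and -0.00436 for all genes. The list was chosen with earlier results of these data known, so these shares describe it and do not test it. *Ccng2*, a cyclin gene that FoxO factors activate, fell from 22.8 ± 0.898 to 11.5 ± 0.750 CPM in scramble cells (log2 fold change -0.99, SE 0.0564, adjusted p = 4.47e-07) and from 15.5 ± 0.738 to 10.7 ± 0.193 CPM in shSrsf3 cells (-0.53, SE 0.0600, adjusted p = 0.000864 from edgeR's test; SD, n = 3 each). *Pik3ip1*, an inhibitor of phosphatidylinositol 3-kinase, fell by 0.51 and 0.33 on the log2 scale, *Irs2* by 0.35 and 0.34, and *Foxo1* by 0.41 in scramble cells. *Foxo6*, with few counts, had the largest rise of the list in both lines and was not called. It changed by 0.45 in scramble and 1.07 in shSrsf3 cells (adjusted p = 0.376 and 0.301 from edgeR's test). The call of *Foxo1* was lost without unstimulated scramble replicate 2 or stimulated scramble replicates 1 or 3 (adjusted p = 0.0813, 0.0883, and 0.103). In shSrsf3 cells, that of *Irs2* was lost without any of the 3 unstimulated replicates (0.0765, 0.0547, and 0.0602) or stimulated replicates 2 or 3 (0.102 and 0.0762). That of *Pik3ip1* was lost without any of the 6 shSrsf3 libraries (0.0879 to 0.184), unstimulated scramble replicate 2 (0.0607), or stimulated scramble replicates 1 or 3 (0.0522 and 0.0705). Between the lines, 8 of 12 were lower in shSrsf3 cells without ligand and 8 with ligand, against 23.7% and 20.7% of all genes, with medians of -0.34 and -0.19. Of these, 6 were lower at both states, while *Ccng2* and *Cdkn1b* were called only without and *Sesn1* and *Bcl6* only with ligand. That difference was not called for any of them by the interaction term of edgeR's model. For *Ccng2* it was 0.46 on the log2 scale (SE 0.0824, adjusted p = 0.144 from that term), which does not show that the effects were alike. The share of all genes lower at both states is not given here, so nothing is read from the count of 6. Among the 6, *Foxo1* was lower (-0.91 and -0.62), as was *Foxo6* (-2.19 and -1.57) from counts of 4 to 51. By DESeq2, 8 and 6 of the 12 were called between the lines and 7 and 3 upon stimulation. Of 27120 genes with a p-value, DESeq2 called 6539 and 5883 between the lines and 857 and 206 upon stimulation. For the interaction, edgeR called no gene of the 5 lists. At an unadjusted p under 0.05 it had 3 genes of the FoxO list, 3 further family genes, and 1 kinase or ubiquitin pathway gene. Of all genes, 5.54% had such a p. DESeq2 called 1 gene of the FoxO list for the interaction, and 24 of the 27120 genes. The comparisons of ligand in scramble cells and of the lines without ligand share the unstimulated scramble libraries.

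**Figure D4:**
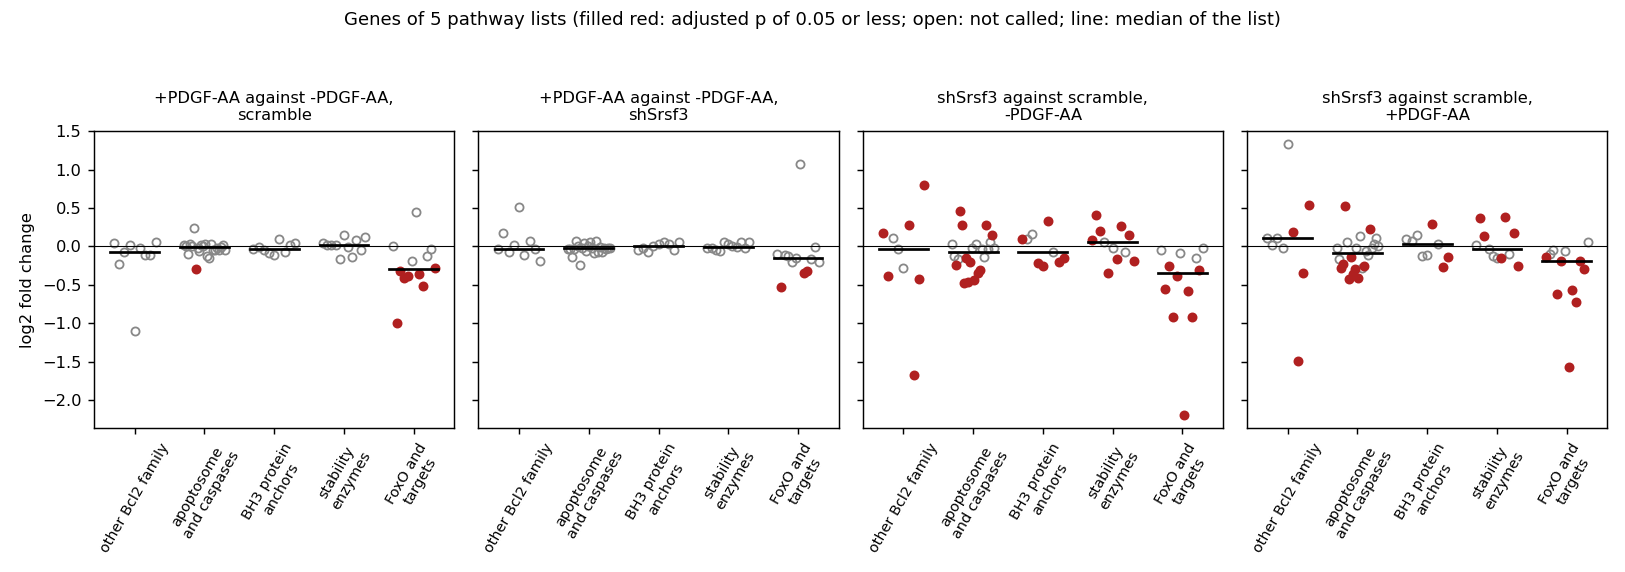
Log2 fold change (y axis) of each tested gene of 5 pathway lists in 4 comparisons, with filled red points for an adjusted p of 0.05 or less, open points for genes not called, and a line at the median of each list. The FoxO list has medians of -0.30 and -0.155 upon stimulation, and the other 4 lists have 1 called gene (Casp2) in those panels.

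A FoxO motif (GTAAACA, or TGTTTAC on the other strand, which overlap no other motif searched) was looked for in promoter windows of 300 bases that span the annotated starts (RefSeq, GRCm38.p6, a build other than that of the exons above). It occurred in 3.65% of 32851 windows. Of the members, 8 had at least 1 window, and 1 of the 2 windows of *Bcl2l11* held it, with the motif in capitals below.
Bcl2l11: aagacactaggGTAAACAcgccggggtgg
This stretch lies at chr2:128125800-128125828 of GRCm38.p6 on the plus strand. None of the 3 windows of *Bmf* and none of those of *Bad*, *Bid*, *Bcl2*, *Bcl2l1*, *Mcl1*, and *Bak1* held these letters. *Bcl2l11* changed by -0.11 and 0.02 upon stimulation, as given above.

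As a check of the stimulation, 6 of 7 genes known to respond to growth factors were higher in stimulated scramble cells, against 2% of all genes. The exception was *Fos* (-0.04). These genes were chosen with earlier results of these data known, so the check is not an independent one. In shSrsf3 cells 4 were higher (0.426% of all genes) and *Fos* was lower (-0.58, adjusted p = 0.0128 from edgeR's test, 0.14% of all genes). *Egr1*, an immediate early transcription factor gene, rose by 1.44 and 1.08 on the log2 scale.

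The 5 genes with a pattern most like that of *Bmf* over the 12 samples, among 12261 genes with a mean count of at least 50, were *C87436*, *Khnyn*, *Calhm2*, *Cbx8*, and *Mtss1*. Pearson's r of their log2 CPM with that of *Bmf* was 0.949, 0.923, 0.914, 0.906, and 0.899. The 12 points share 4 groups, so r mostly follows the group levels. These genes were more abundant than *Bmf* per library and moved less. *C87436* had group means of 7.62 and 6.32 CPM in unstimulated and 5.56 and 5.49 CPM in stimulated scramble and shSrsf3 samples, respectively. *Khnyn* had 41.5 and 39.3 CPM against 35.3 and 35.6 CPM. *Cbx8*, a Polycomb group gene, had 14.7 and 11.8 CPM against 11.1 and 9.91 CPM. Among the other members, r with *Bmf* ranged from -0.857 (*Pmaip1*) to 0.454 (*Bcl2l11*).

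**Figure D5:**
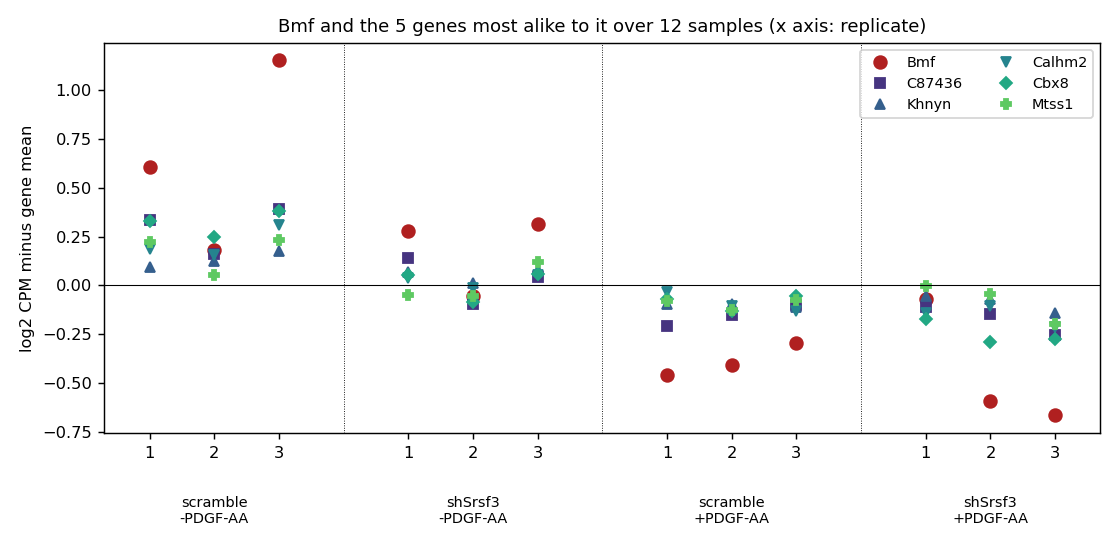
Log2 CPM of Bmf and of the 5 genes most alike to it, each minus its own mean over the 12 samples (y axis), in replicates 1 to 3 of each group (x axis). Bmf has the widest range, from -0.66 in an shSrsf3 +PDGF-AA sample to 1.152 in scramble -PDGF-AA replicate 3.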

How the data were processed

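The authors trimmed the reads of stranded poly(A) libraries with BBDuk, quantified transcripts with Salmon 1.4.0 on GENCODE M26 (GRCm39), and summed them per gene with tximport. The deposited values are expected counts, not scaled to library size, for 12 samples that were grouped by their labels. How tximport scaled them is not given in the sources used here.

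Here, the expected counts were rounded, and genes were kept by filterByExpr (minimum count 10; edgeR 4.0.16). After scaling with TMM factors, 1 quasi-likelihood model with 4 group means was fitted to all samples. P-values were adjusted over all 15037 genes by the Benjamini-Hochberg method. Genes with an adjusted p up to 0.05 were called, and the study's minimum of 2-fold was counted separately. Intervals are 95% intervals. Counting intervals cover counting error only. The members and lists were chosen with earlier results of these data known. The named genes were the 9 members and, of 5 pathway lists, genes past 2-fold and up to 3 others per list and comparison with the largest change among those called. The 5 genes most alike to *Bmf* (log2 CPM, prior count 2) and *Srsf3* and *Cdkn2a* as checks were also named. Gene models came from GENCODE M39, which is newer than the annotation of the authors but of the same build, coding sequences from the GRCm39 genome, and promoters from RefSeq. Between 0% and 4.95% (*Bad*) of the 31-base stretches of the members' transcripts also occurred in other genes. DESeq2 1.42.0, R 4.3.3, Python 3.11, and matplotlib were also used, and the scripts were tested on simulated data. Some sequences and positions are not reported here.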

Additional observations from a re-analysis of the deposited data

Results flagged for a closer look

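The samples of *Bbc3* (Puma), a BH3-only gene of the family, lay in opposite directions upon stimulation in the 2 cell lines. The gene was picked for this separation after a look through the members, the named genes, and *Bax*. In scramble cells it had 13.6, 12.8, and 13.7 CPM without and 10.8, 12.49, and 10.9 CPM with ligand, so that all 3 stimulated samples were lower. In shSrsf3 cells it had 10.8, 10.5, and 9.23 CPM without and 11.9, 10.965, and 11.9 CPM with ligand, so that all 3 were higher. Samples with and without ligand did not overlap for 18.8% of all genes in scramble and 18% in shSrsf3 cells. The difference between the ligand effects was 0.41 on the log2 scale (SE 0.104), which did not pass the adjustment over all genes (adjusted p = 0.576 from the interaction term of edgeR's model). Neither ligand effect was called by itself (-0.23, adjusted p = 0.1, and 0.18, adjusted p = 0.456). Groups of 3 samples were not tested for outlying samples.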

How the results depend on the processing

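Without ligand, 3 of 8 members were called between the lines, and 1 when only the groups compared were fitted, 1 to 4 when a sample was left out (1, *Bcl2l11*, without scramble replicate 2), and 0 with the 2-fold minimum. With ligand, 1 was called, and 2 with library size alone, 2 with only the groups compared, 3 without the 3 libraries of lowest mapping rate, 2 with a model term for these (chosen after the data were seen), 0 with the 2-fold minimum, and 1 to 2 when a sample was left out (2, with *Mcl1*, without unstimulated scramble replicate 3). Counts of 0 for the ligand in shSrsf3 cells and for the interaction were 0 in all settings tried. *Bmf* changed by -1.12 upon stimulation of scramble cells, by -1.55 without the 3 libraries, and by -1.33 to -0.80 when a sample was left out, and in shSrsf3 cells by -0.60 and by -0.83 to -0.49. Differences that were not called changed sign for *Bad* (0.0498 without the 3 libraries, 0.0838 with the term, -0.10 to 0.0067 leaving out samples) and *Bak1* (0.0045 with RLE factors, 0.021 with library size alone, 0.0038 with only the groups compared, 0.0029 with DESeq2, 0.25 without the 3 libraries, 0.21 with the term, -0.11 to 0.064) without ligand. They also did so for *Bid* with ligand (0.0047 with library size alone, -0.056 to 0.0076), *Pmaip1* without (-0.053 to 0.052) and with ligand (-0.0094 without a filter, -0.046 to 0.061), and, upon stimulation of shSrsf3 cells, *Bcl2l11* (-0.0090 to 0.062) and *Bak1* (-0.037 to 0.071). With the replicate number as a block, 3, 1, 0, and 0 members were called and *Bmf* changed by -1.09 and -0.61. The labels do not say whether the numbers mark pairs. Same-numbered samples had correlated deviations (r over 0.1) in 2 of 18 pairs, and samples of different number in 3 of 36. The 2 same-numbered pairs were scramble samples with and without ligand, replicates 2 (0.201) and 3 (0.175). These values do not decide whether the samples were paired. Over all settings, 608 genes (243 to 1472) were called for the ligand in scramble cells, 85 (23 to 374) in shSrsf3 cells, and 2 (1 to 218) for the interaction; the highest of the latter 2 counts came without a low-count filter. The cause of these changes was not tested. *Bmf*, with 32 to 225 counts per library, had the lowest counts of the members.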
